A study of Mus musculus with 2 samples.

Results

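Notch receptors and the genes that act with them were read in 2 RNA-seq libraries of mouse regulatory T cells (Treg cells), a suppressive subset of CD4+ T cells defined by the transcription factor Foxp3. The 10 genes, chosen by symbol from 24081 gene symbols in the count table, were the receptors Notch1, Notch2 and Notch3, the nuclear partners Rbpj, Maml1 and Maml2, the regulators Dtx1, Dtx3 and Numb, and the target Hes1. They were gathered with their levels in these libraries already known, and Notch3 was named because its KO level was at least 2-fold the WT level, so every value below is a description.

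The KO library came from mice with both alleles of a gene of the SUMO conjugation pathway floxed, and the WT library from mice with 1 floxed allele and 1 intact allele of it. Mice of both groups were C57BL/6, 5 weeks old, and carried Cre under the control of Foxp3 on 1 of their Foxp3 alleles (Foxp3cre/wt), so that Treg cells that use the other allele stay without Cre. CD4+ YFP+ cells, in which YFP marks expression of Cre, were sorted from lymph nodes and spleen and pooled from 5 to 10 mice for each library. Both libraries carry a wild type genotype label, and the group of each was taken from its title. With a single library for each genotype, differences have no replicate check and no test was made.

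Notch receptors are cleaved when a neighbouring cell presents a ligand, and the freed intracellular part moves to the nucleus. There it joins the DNA-binding protein encoded by Rbpj and a Mastermind coactivator (the Maml genes) and switches on targets such as Hes1 and Dtx1, while Rbpj without Notch recruits co-repressors. In T cells the pathway is known for directing T lineage commitment in the thymus and for shaping helper cell fates later on.

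Gene-assigned reads numbered 23789264 for KO and 11662867 for WT. Levels are given as reads, as CPM (counts scaled to the depth of the library, here after TMM scaling, which sets the bulk of genes level), or as CPM per kilobase of the longest annotated transcript where genes are set against each other. Ratios are KO over WT. Each fold has an exact 95% interval for counting error only, which leaves out any spread between mice. A gene counted as expressed with a mean of at least 20 reads over both libraries (10899 genes). Markers of the sorted cells were abundant: Foxp3 had 1320 CPM in the KO library and 713 in the WT library, and Cd4 had 2348 and 1939. Because the RNA came from bulk cells, fewer cells of a type and less RNA per cell cannot be told apart.

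Of the 10 genes 9 were expressed. Notch3 was higher in the KO library, Rbpj was lower, Numb was close to level, and the remaining 6 expressed genes were 1.17-fold to 1.42-fold higher before any allowance for GC content. Hes1, the classical target, was barely read in either library. The order of levels per kilobase ran from Dtx1 at the top to Notch3 at the bottom in both libraries.

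**Figure D1:**
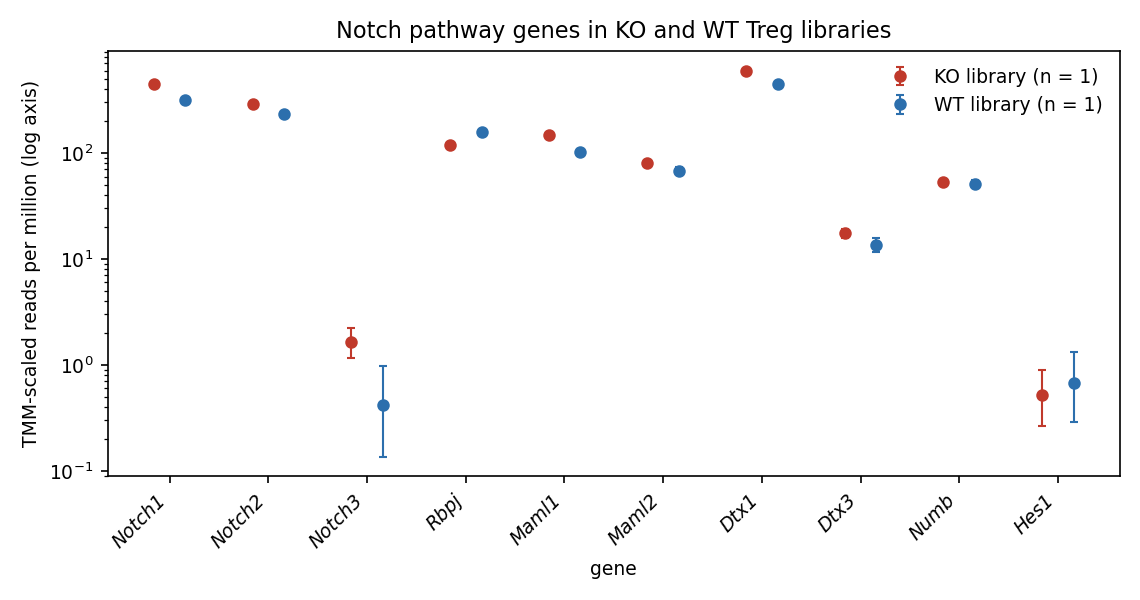
CPM after TMM scaling (vertical log axis) of the 10 genes in the KO library (red, left of each pair) and the WT library (blue, right), with exact 95% Poisson intervals for counting error and 1 library per group. Dtx1 stood highest at 596 in the KO library and 451 in the WT library, while Notch3 and Hes1 lay under 2 in both.

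Among the receptors, Notch1, the main Notch receptor of developing T cells, had 10360 reads in the KO library and 3814 in the WT library, which is 447 and 318 CPM. Notch1 was thus 1.40-fold higher in the KO library (1.35 to 1.46). Notch2, known for its part in marginal zone B cells and also carried by T cells, had 6696 and 2803 reads, or 289 and 234 CPM, and was 1.24-fold higher (1.18 to 1.29). These 2 receptors made up nearly all receptor reads: in the KO library Notch1 took 60.6% (exact binomial 95% interval 59.8 to 61.3) and Notch2 took 39.1% (38.4 to 39.9), and in the WT library they took 57.6% (56.4 to 58.8) and 42.3% (41.1 to 43.5).

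Notch3, a receptor best known from vascular smooth muscle and immature thymocytes, had 38 reads in the KO library and 5 in the WT library. The exact Poisson interval ran from 26.9 to 52.2 reads in the KO library and from 1.62 to 11.7 in the WT library. At the KO level the shallower WT library would have held 19.7 reads of Notch3. Its fold was 3.93 (1.54 to 12.8), so the interval reached below the 2-fold at which it was named, and the next gene under that fold was Maml1 at 1.42. Of all expressed genes 1.59% were at least 2-fold higher, and the log2 ratio of Notch3, 1.84 with a pseudocount of 1, lay above 99.9% of them. Its level was low in both: 0.205 CPM per kilobase in the KO library and 0.0521 in the WT library (percentiles 0.544 and 0.0276 among expressed genes of each library). Set against the receptor family alone, which needs no scaling, Notch3 was 0.222% of Notch receptor reads in the KO library (0.157 to 0.305) and 0.0755% in the WT library (0.0245 to 0.176), and these intervals overlap slightly. Notch3 counted as expressed only through its KO reads.

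Rbpj, which encodes the DNA-binding partner of every Notch receptor, had 2781 reads in the KO library and 1891 in the WT library, or 120 and 158 CPM. It was 1.31-fold lower in the KO library (1.24 to 1.39), and among the 9 expressed genes it was the single gene whose interval lay wholly below a ratio of 1. Over all expressed genes 25.6% had such an interval. The Mastermind coactivator Maml1 stood on the other side, with 3396 and 1237 reads, 147 and 103 CPM, and a 1.42-fold higher level (1.33 to 1.52). Maml2, its relative, had 1854 and 818 reads and was 1.17-fold higher (1.08 to 1.27).

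Counts within a library show the same contrast without any scaling. For every 100 reads of Maml1 there were 81.9 reads of Rbpj in the KO library and 152.9 in the WT library. For every 100 reads of Notch1 there were 26.8 and 49.6 reads of Rbpj, a ratio of 0.541 between the libraries. Maml1 kept its proportion to Notch1, at 32.8 reads per 100 in the KO library and 32.4 in the WT library. These proportions still carry the trend with GC content given below, and Rbpj had 43.7% GC, Maml1 55.7% and Notch1 57.1%. With the trend on GC content and length removed, the log2 ratios of Rbpj, Maml1 and Notch1 were -0.35, 0.25 and 0.09. Per kilobase, Rbpj ranked number 5 of the 10 genes in the KO library at 21.9 CPM per kilobase and number 3 in the WT library at 28.8. With the union of annotated exons as length it ranked number 7 and number 6, so its place depends on the transcript model.

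Promoters are shown for the gene furthest up, the expressed gene furthest down and the most abundant gene. Each runs from 250 bases before to 50 bases after an annotated start (RefSeq, GRCm38.p6), 5′ to 3′ on the strand of the gene. The windows are chr17:32166841-32167140 (minus strand) for Notch3, chr5:53590096-53590395 (plus strand) for Rbpj and chr5:120711620-120711919 (minus strand) for Dtx1. Capitals mark TGGGAA, the core of the motif that the Rbpj protein is known to bind, or its reverse complement TTCCCA.
Notch3: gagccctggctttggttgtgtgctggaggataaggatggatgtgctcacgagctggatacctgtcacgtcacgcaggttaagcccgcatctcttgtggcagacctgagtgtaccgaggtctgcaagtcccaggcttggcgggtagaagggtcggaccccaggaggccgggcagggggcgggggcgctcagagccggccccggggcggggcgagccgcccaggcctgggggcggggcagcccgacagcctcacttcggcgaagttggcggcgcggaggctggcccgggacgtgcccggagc
Rbpj: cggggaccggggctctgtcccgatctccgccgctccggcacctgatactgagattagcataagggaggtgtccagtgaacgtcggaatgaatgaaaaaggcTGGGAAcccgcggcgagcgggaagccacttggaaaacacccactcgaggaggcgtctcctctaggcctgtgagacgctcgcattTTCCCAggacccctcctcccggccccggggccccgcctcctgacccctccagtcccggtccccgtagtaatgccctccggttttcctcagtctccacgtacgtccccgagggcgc
Dtx1: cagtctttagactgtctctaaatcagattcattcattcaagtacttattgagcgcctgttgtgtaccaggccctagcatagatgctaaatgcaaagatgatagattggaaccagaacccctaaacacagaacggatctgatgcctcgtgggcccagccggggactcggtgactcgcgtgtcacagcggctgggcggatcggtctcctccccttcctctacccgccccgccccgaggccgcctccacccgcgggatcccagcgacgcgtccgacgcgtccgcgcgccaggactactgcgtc
The Rbpj window held 2 matches and those of Notch3 and Dtx1 held 0. Rbpj has a further annotated window that overlaps the one shown and held 1 match, TTCCCA, which lies in both. Over the 12 windows annotated for 8 of the 10 genes, 3 held the core on either strand (both Rbpj windows and 1 of 2 for Maml2), against 25.6% of 32851 promoter windows of the same length in the mouse genome. A match is a run of letters and was not tested as a binding site.

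Of the regulators, Dtx1, a Deltex family gene that is both a regulator and a known Notch target in lymphocytes, was the most abundant of the 10. It had 13809 reads in the KO library and 5406 in the WT library, which is 148 and 112 CPM per kilobase or percentiles 96.9 and 96.1 among expressed genes. Dtx1 was 1.32-fold higher in the KO library (1.28 to 1.36). Its proportion to Notch1 was 133.3 reads per 100 in the KO library and 141.7 in the WT library. The related gene Dtx3 had 403 and 162 reads, or 17.4 and 13.5 CPM, and was 1.29-fold higher (1.07 to 1.55). Numb, an endocytic adaptor that restrains Notch, had 1237 and 615 reads, or 53.4 and 51.3 CPM, and a fold of 1.04 whose interval of 0.944 to 1.15 spans no difference.

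Hes1, a transcriptional repressor and textbook Notch target, had 12 reads in the KO library and 8 in the WT library, 0.518 and 0.668 CPM. The ratio of 0.776 had an interval of 0.292 to 2.19, which includes a difference of 2-fold in either direction. At 0.353 and 0.455 CPM per kilobase, Hes1 lay between Dtx3 and Notch3 in both libraries, and its counting interval per kilobase overlapped that of Notch3 in the KO library. Apart from the pairs Hes1 with Notch3 and Notch2 with Maml1, neighbours in the KO order had counting intervals that did not overlap.

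**Figure D2:**
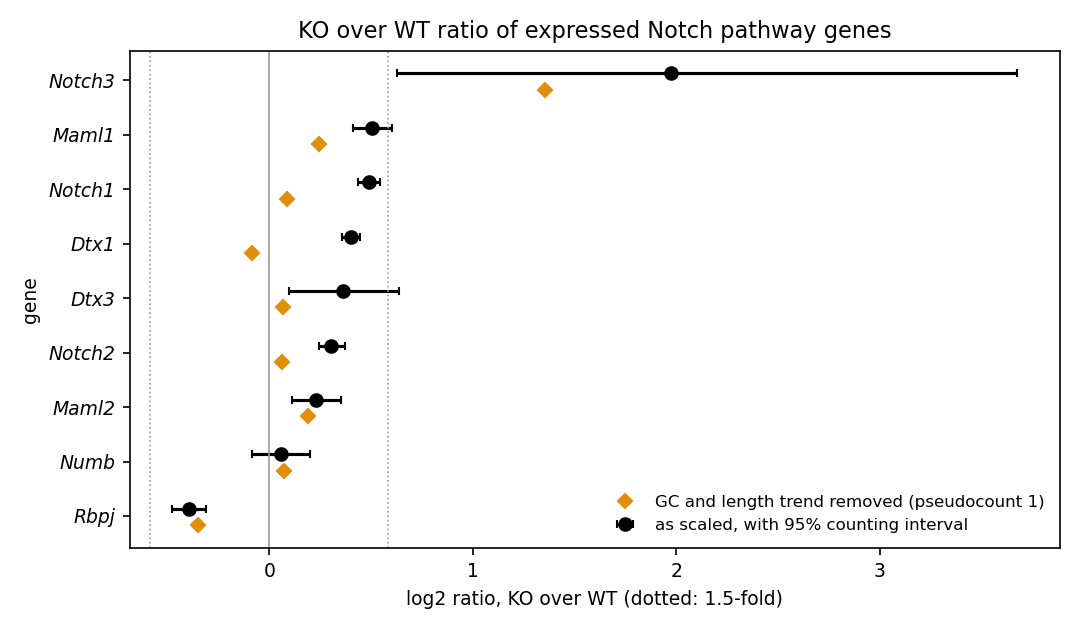
Log2 ratio of KO over WT (horizontal axis) of the 9 expressed genes, as scaled without a pseudocount with its 95% counting interval (black) and after removal of the trend on GC content and length with a pseudocount of 1 (orange diamonds); dotted lines mark 1.5-fold. Notch3 lies beyond 1.5-fold on both scales, Rbpj lies below 0 on both, and Dtx1 moves to -0.09 once the trend is removed.

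With a threshold of 1.5-fold on the log2 ratio with a pseudocount, Notch3 was the 1 gene called among the 9, and 7.43% of all expressed genes were called higher and 5.51% lower. Of the 9, 8 had a log2 ratio above 0, as did 51.4% of all expressed genes. The median of the 9 was 0.36, against 0.01 over all expressed genes. For 7 of them the counting interval of the fold lay above 1, as for 29.1% of all. These tallies, and those of the 9 below, include Notch3, which was named for its ratio and expressed only through its KO reads. With a floor of 100 counts, which leaves Notch3 out, the median of the Notch genes left was 0.33, against 0.01 over all genes.

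The ratio also moved with the GC content of transcripts. Over expressed genes, which are not independent replicates, Spearman's rho between the log2 ratio and GC content was 0.41 (10851 genes), and when these genes were cut into 10 equal bins by GC content the lowest bin had a median log2 ratio of -0.18 and the highest 0.36. Of the 10 genes 7 were above the median GC content of 49.5%. Dtx1 had 62.5% GC, Notch3 59.6%, Dtx3 58.7%, Notch1 57.1%, Maml1 55.7% and Notch2 53.6%, while Rbpj had 43.7%. The fitted trend at the GC content of Dtx1 was 0.48 on the log2 scale, more than its own ratio of 0.40.

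With the trend on GC content and length removed, the log2 ratios of Notch1, Notch2 and Dtx3 were 0.09, 0.06 and 0.06, and that of Dtx1 was -0.09, on the other side of 0. Maml1 was at 0.25 and Maml2 at 0.19. Rbpj at -0.35 and Notch3 at 1.36 kept their direction. The median of the 9 genes was then 0.07, against -0.03 over all genes with a known GC content, and Notch3 was still the 1 gene past 1.5-fold, where 4.09% of all genes were called higher, and past 2-fold, where 0.922% were. Of the 9 genes 7 were above 0, as were 45.6% of all. Whether the trend arose in the cells or in the making of the libraries was not tested.

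**Figure D3:**
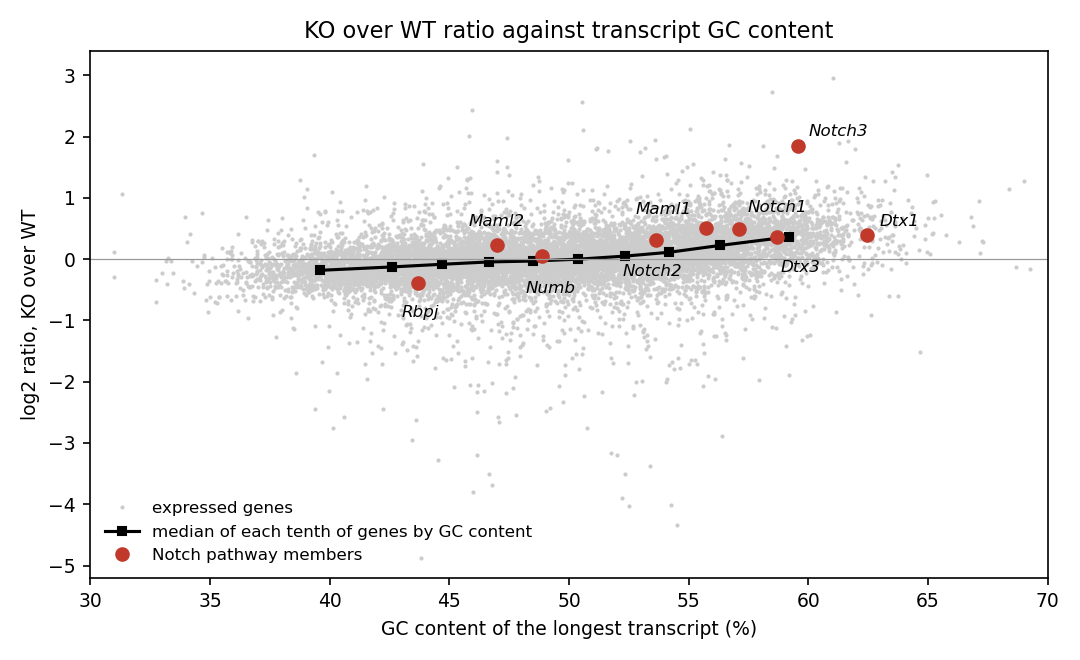
Log2 ratio of KO over WT against GC content of the longest transcript (percent) for expressed genes (grey), with the median of each of 10 equal bins of genes by GC content (black line) and the 9 expressed Notch pathway genes (red). Notch1, Dtx3 and Dtx1 lie near the rising line at the right, whereas Notch3 lies above it at 1.84 and Rbpj below it at -0.39.

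The pathway around these genes was read from a list of 76 genes in 8 roles that includes the 10, of which 60 were expressed. Of these 60, the KO library was at least 1.5-fold higher for 10 and at least 1.5-fold lower for 2, with 48 between, against the 7.43% and 5.51% of all expressed genes. With the GC and length trend removed, 4 were higher (Crebbp, Gata3, Myc and Notch3, each of them also higher as scaled) and 3 lower (Dtx4, Psen2 and Jag2), against 4.09% and 6.13% of all genes.

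In the nuclear complex, the largest difference was that of the histone acetyltransferase gene Crebbp, a coactivator shared by many transcription factors. It had 6353 reads in the KO library and 1751 in the WT library and was 1.88-fold higher (1.78 to 1.98), with a log2 ratio of 0.73 after removal of the trend. Its relative Ep300 had 11548 and 3949 reads and was 1.51-fold higher (1.46 to 1.57; log2 ratio 0.44 with the trend removed, under 1.5-fold). Spen, a co-repressor that docks on Rbpj, had 7750 and 2442 reads and was 1.64-fold higher (1.57 to 1.72). With the trend removed its log2 ratio was 0.27, under 1.5-fold. Of the 12 expressed co-repressors, 2 were at least 1.5-fold higher and 0 lower as scaled, against 7.43% and 5.51% of all expressed genes. With the trend removed 0 were higher and 0 lower, against 4.09% and 6.13% of all genes.

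Of the 9 expressed genes whose products trim and cut the receptors, 2 had a log2 ratio above 0 as scaled, against 51.4% of all genes. With the trend removed the same 2 were above 0, against 45.6%. At 1.5-fold, 0 were called higher and 1 lower as scaled, against 7.43% and 5.51% of all expressed genes. With the trend removed these counts were the same, against 4.09% and 6.13%. Furin, whose product trims the receptors on their way to the surface, had 2178 reads in the KO library and 782 in the WT library and was 1.44-fold higher (1.33 to 1.57; log2 ratio 0.25 with the trend removed). Psen2, which encodes a catalytic subunit of gamma-secretase, the protease that frees the intracellular part of Notch, had 973 reads in the KO library and 828 in the WT library. It was 1.65-fold lower (1.498 to 1.81), at -0.85 on the log2 scale with the trend removed. Among glycosyltransferases that tune how receptors answer ligands, Rfng had 639 and 213 reads and was 1.55-fold higher (1.33 to 1.82), though at 0.30 on the log2 scale with the trend removed. Of 7 ligand genes only Jag2 was expressed, with 39 and 22 reads and a fold of 0.917 (0.530 to 1.62; -0.61 on the log2 scale with the trend removed).

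Of the 14 expressed regulators, 2 were at least 1.5-fold higher and 1 lower, against 7.43% and 5.51% of all expressed genes. With the trend removed 0 were higher and 1 lower, against 4.09% and 6.13%. The regulators called lay outside the 10 genes. Dtx4, a further Deltex gene, had 288 reads in the KO library and 267 in the WT library and was 1.79-fold lower (1.51 to 2.12; -0.94 on the log2 scale with the trend removed). Dtx2 had 1400 and 458 reads and was 1.58-fold higher (1.42 to 1.76; 0.49 with the trend removed, under 1.5-fold). Numbl, a relative of Numb, had 98 and 28 reads and was 1.81-fold higher (1.18 to 2.86; 0.58, just under 1.5-fold). Among the Deltex genes as scaled, Dtx1, Dtx2 and Dtx3 were thus higher in the KO library and Dtx4 lower, and Dtx3l, with 6177 and 3526 reads, had a fold of 0.906 (0.869 to 0.945).

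In the list of Notch targets, the genes called besides Notch3 were Myc and Gata3, and what drove them was not tested. The growth regulator Myc had 5204 reads in the KO library and 1559 in the WT library and was 1.73-fold higher (1.63 to 1.83), and the T cell transcription factor Gata3 had 3193 and 1040 reads and was 1.59-fold higher (1.48 to 1.70). Their log2 ratios with the trend removed were 0.73 and 0.68. Dtx1, described above, is also a target, at 1.32-fold and -0.09 on the log2 scale with the trend removed. Also in the list, Il2ra was 1.36-fold higher (1.33 to 1.39), Tcf7 1.25-fold (1.23 to 1.28) and Bcl11b 1.24-fold (1.21 to 1.29). With the trend removed these were at 0.50, 0.30 and 0.20 on the log2 scale. Igf1r had a fold of 0.819 (0.763 to 0.878) and a log2 ratio of -0.42 with the trend removed. Hes6, a relative of Hes1 that the list counts as a target, had 398 and 200 reads and a fold of 1.03 (0.866 to 1.23). Its log2 ratio with the trend removed was -0.36. Nrarp, a feedback inhibitor of Notch, had 84 and 43 reads (1.01-fold, 0.692 to 1.49), while Hes5, Hey1, Hey2, Heyl and Ptcra, like Hes1, were below the floor. Of the 16 genes of the target list 10 were expressed. A log2 ratio above 0 was held by 9 as scaled and 6 with the trend removed, against 51.4% and 45.6% of all genes. At least 1.5-fold higher were 3, Notch3 included, and 0 were lower, against 7.43% and 5.51% of all expressed genes. With the trend removed 3 were again higher and 0 lower, against 4.09% and 6.13%. These counts include Notch3, whose ratio was known when it was named.

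**Figure D4:**
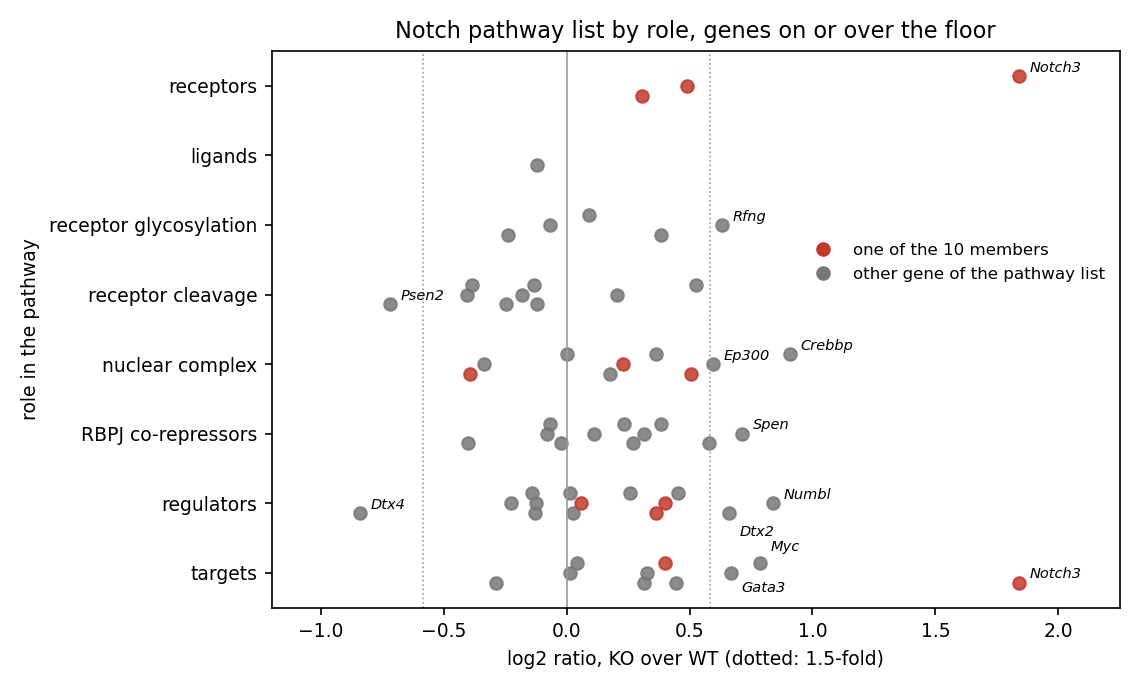
Log2 ratio of KO over WT (horizontal axis, pseudocount 1, trend not removed) of expressed genes of the pathway list by role, with the genes of the 10 in red and the others in grey; vertical offsets within a role are for legibility, and a gene with 2 roles appears in both. Genes drawn beyond the dotted 1.5-fold lines are named; of the genes drawn, Notch3 at 1.84 and Crebbp at 0.91 lie furthest to the right and Dtx4 at -0.84 furthest to the left.

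Leaving out predicted genes, RIKEN cDNA genes, pseudogenes and antigen receptor segments, the 5 genes with a mean of at least 100 reads whose log2 ratio lay nearest to that of Notch3 over the 2 libraries were Ptprf (1.84), Lars2 (1.81), Sox4 (1.79), Zfp579 (1.54) and Pygm (1.51). They were read far more deeply than Notch3: Ptprf had 647 reads in the KO library and 93 in the WT library, and Sox4 had 799 and 119.

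Markers of other cells that could carry Notch genes were set beside these values as summed CPM. The B cell list (6 of 6 genes expressed) summed to 95.9 in the KO library and 119 in the WT library. The 3 marginal zone B cell genes other than Dtx1 summed to 33.2 and 38.8, while Dtx1 alone stood at 596 and 451. Most of that sum was Cd1d1 at 25.4 and 27.1, with Cr2 at 6.48 and 9.93 and Fcrl5 at 1.34 and 1.75. The list for vascular smooth muscle and pericytes summed to 5.31 and 4.59, with Rgs5 and Cspg4 at 0 reads in both libraries and most of the sum from Tagln (105 and 47 reads). The thymocyte list summed to 165 and 148, of which Themis, also carried by mature T cells, was 138 and 119 and Cd1d1, carried by many cells, 25.4 and 27.1. Of its other genes Dntt had 35 reads in the KO library and 13 in the WT library (1.39-fold, 0.719 to 2.87), Rag2 and Ptcra had 0 in both, and Rag1 had 0 in the KO library and 3 in the WT library. The endothelial list summed to 327 and 298, of which Pecam1, also carried by T cells, was 324 and 295, with Emcn at 0 in both. Fibroblastic stroma summed to 0.777 and 0.751, with Pdgfra, Pdpn and Ccl19 at 0 in both. The part of these cells in the Notch values was not tested.

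Further lists summed to 41.5 in the KO library and 33.6 in the WT library for CD8 T cells. For NK cells the sums were 12.2 and 18.2, for myeloid cells 386 and 418, and for dendritic cells 14.5 and 12.5. The erythroid list summed to 5.31 and 13.8, from Alas2 (4.02 and 9.60) and Slc4a1 (1.30 and 4.17). Its other genes, Hbb-bs and Hba-a1, were at 0 in both. Reads that align to several places were not counted to genes, so a count of 0 does not show absence. The Treg list summed to 3510 and 2486 and the T cell list to 4439 and 4117. Within the Treg list Foxp3, Il2ra (1211 and 889) and Lrrc32 (408 and 173) were higher in the KO library, while Ikzf2 (203 and 322) and Ctla4 (88.8 and 143) were lower.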

How the data were processed

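Per the labels' protocols, poly(A) RNA was isolated with magnetic beads after a Trizol extraction, and a transposase kit built the libraries (DNA input 1 ng). The submitters' processing notes name TopHat2 2.0.3, HTSeq and mm10; neither annotation nor strand setting is stated. The authors deposited raw read counts per gene. Of counted entries 23.4% in each library were assigned to no gene (mostly reads aligned to several places) and stayed out of library sizes.

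The 10 genes and all lists (8 pathway roles, 13 marker lists) were chosen with earlier results of these data known. Named genes are the 10, every gene of a role at least 1.5-fold apart and, where a role had none, its up to 3 largest ratios; for Notch3, the 5 nearest ratios among genes averaging 100 counts or more, without predicted genes, RIKEN cDNA genes (Rik symbols), pseudogenes and antigen receptor segments. Nrarp, Furin, Dtx3l, Hes6, Il2ra, Tcf7, Bcl11b, Igf1r, the targets below the floor and marker genes were named after their values were seen.

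Counts were scaled with edgeR 4.0.16 TMM factors (0.974 for KO, 1.03 for WT) in R 4.3.3 and given a pseudocount of 1 for log2 ratios; folds and intervals use none. No test was possible with 1 library a group. GC content and length came from the longest GENCODE M21 transcript (99.6% of expressed genes), and their trend was removed by lowess (fraction 0.3, statsmodels 0.14.6). The removal was tested on simulated data with a trend on GC content or none. A trend on length was not simulated. Alternatives were DESeq2 1.42.0, total-count and upper-quartile scaling, other pseudocounts and floors, and the trend removal.

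Intervals cover counting error only. No molecular identifiers are mentioned, so amplified copies could not be told from separate molecules, and the intervals may be too narrow. Exons of Notch1, Notch3, Maml1 and Numb overlap predicted or unnamed transcripts on the opposite strand and those of Notch2 and Maml2 on the same strand. Rbpj has processed pseudogenes, and reads that align to several places were not counted to genes. The level of the targeted gene is not given here, and 1 gene of the pathway list is counted but not reported singly or drawn by role.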

Additional observations from a re-analysis of the deposited data

How the results depend on the processing

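Over 8 alternatives, the log2 ratio of Notch3 stayed between 1.36 (GC and length trend removed) and 1.90 (pseudocount of 0.5), and Rbpj stayed below 0. DESeq2 and upper-quartile scaling and both pseudocounts left each of the 22 genes that the naming rule chose within its counting interval. Total-count scaling moved 7 of them out of it, took Numb below 0 and shifted the median of all genes to -0.06; 7 genes of the pathway list were then at least 1.5-fold higher. Removing the trend moved 11 of 21 genes out, and gave medians of 0.0737 for the Notch genes and 0.00594 for the pathway list, against 0.36 and 0.19 as scaled. It left 4 pathway genes at least 1.5-fold higher, against 10, and 444 and 100 of all genes at least 1.5-fold and 2-fold higher, against 810 and 173. With a floor of 100 counts Notch3 was not expressed, so 0 Notch genes passed 1.5-fold or 2-fold higher, and of all genes 509 and 62 were higher and 309 and 95 lower at these folds. With no floor 2617 and 1027 were higher and 1867 and 1186 lower (600 and 227 with the floor of 20), 9 pathway genes were at least 1.5-fold lower, against 2, and the pathway median was 0.0733. No paired analysis was possible because each group holds 1 library; for the same reason no library could be left out. Depth limits Notch3 and Hes1, which rest on at most 38 reads.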
